A study of Mus musculus with 4 samples.

Results

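The NRF2 antioxidant genes examined here are 10 genes chosen by symbol as the core of the oxidative stress response. They are Nfe2l2, Keap1, Hmox1, Nqo1, Gclc, Gclm, Txnrd1, Srxn1, Slc7a11 and Sqstm1. The choice was made with earlier results of these data known. All 10 were found among the 18298 genes that the 4 files list. They were measured by RNA sequencing in primary rib chondrocytes, the cells that make cartilage, taken from E18.5 embryos of the C57BL/6 background and cultured to passage 1. The 2 mutant samples carried Dermo1-Cre together with Senp6f/f, and the 2 control samples (labelled WT) carried Senp6f/f alone, so both groups held the floxed allele of Senp6, which encodes a protease that removes SUMO2/3 from proteins, and only the mutants held Cre. Dermo1-Cre is driven from a locus active in the mesenchymal progenitors of bone and cartilage, and a control with Cre but without the floxed allele was not analysed here. The comparison asks how the RNA of the oxidative stress genes differed between the 2 genotypes.

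NRF2, encoded by Nfe2l2, is a transcription factor that pairs with small MAF proteins and binds antioxidant response elements in the promoters and enhancers of its targets. In unstressed cells KEAP1 holds NRF2 and presents it to a ubiquitin ligase for degradation, while oxidants and electrophiles modify cysteines of KEAP1 and let newly made NRF2 reach the nucleus. The protein of Sqstm1 binds KEAP1 and carries it to autophagosomes, so the pathway is controlled for a large part at the protein level, which RNA counts do not show. In cartilage the pathway is known for protecting chondrocytes from oxidative damage.

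The libraries held 21007449 to 30983806 reads on the 14123 genes that were tested. Senp6 itself had 10.8 and 18.0 RPKM (reads per kilobase of gene and per 1000000 reads counted on genes) in the 2 controls and 12.0 and 8.07 in the 2 mutants. These groups overlapped, and the deposited counts per gene also include reads from exons that the deletion leaves in place. Mutant replicate 2 had 11354 reads on Xist while the other 3 samples had 2 to 5, and the Y-linked Ddx3y had 3 reads there and 818 to 1601 in the others. The mutant replicates thus came from embryos of different sex. Of 10 chondrocyte marker genes, all 10 were lower in both mutants than in both controls, against 19.2% of all genes tested, although none was at 0. For Acan the nearest control and mutant values were 16.8 and 16.5 RPKM. The summed RPKM of these markers was 965 and 955 in the controls and 501 and 626 in the mutants. The summed RPKM of 10 striated muscle markers was 97.5 and 27.4 in the controls and 154 and 179 in the mutants. That of 8 osteoblast markers was 187 and 83.3 in the controls and 31.9 and 53.5 in the mutants. These marker sums did not overlap between the genotypes. That of 7 fibroblast and tendon markers did, with 9220 and 6477 in the controls and 6516 and 4803 in the mutants. Of the 10 muscle markers, 6 had both mutants above both controls, against 28.3% of all genes tested, and 0 had both below. Of the 5 osteoblast markers tested, 5 had both mutants below both controls, against 19.2%. The part of any of these sums in the values of the NRF2 genes was not tested. In RNA from whole cultures, fewer cells of a type and less RNA per cell cannot be told apart.

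Promoter windows from 250 bases before to 50 bases after the start site were given by RefSeq on GRCm38.p6 for 8 of the 10 genes, in 10 windows, while Hmox1 and Gclc had none. These coordinates are not on mm9, the build named in the submitters' processing notes, and were not used with the counts. The core letters of the antioxidant response element were searched on both strands as TGACNNNGC, TGAGNNNGC and TGATNNNGC. They occurred in 5 of these 10 windows, each of a different gene, and in 33.9% of all 32851 windows. The motifs were chosen after the sequences were seen, so these shares are not a test of enrichment. The stretches with matches upstream of the start site are given because they hold the letters that NRF2 and other factors of the stress response recognise, with every match in capitals and the rest in lower case.
Nfe2l2, chr2:75704870-75704913, - strand: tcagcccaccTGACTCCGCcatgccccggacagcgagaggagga
Srxn1, chr2:152105341-152105512, + strand: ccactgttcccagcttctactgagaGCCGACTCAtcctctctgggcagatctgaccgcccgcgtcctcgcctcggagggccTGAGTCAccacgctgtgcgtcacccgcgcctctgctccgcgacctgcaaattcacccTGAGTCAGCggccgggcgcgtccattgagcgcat
Slc7a11, chr3:50443625-50443735, - strand: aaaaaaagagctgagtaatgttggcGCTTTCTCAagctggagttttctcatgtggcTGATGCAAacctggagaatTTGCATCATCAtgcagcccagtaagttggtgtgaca
Gclm, chr3:122245398-122245456, + strand: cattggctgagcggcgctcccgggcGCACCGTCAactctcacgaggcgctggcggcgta
Txnrd1, chr10:82859089-82859147, + strand: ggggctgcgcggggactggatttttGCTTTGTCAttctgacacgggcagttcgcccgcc
In Nfe2l2 the capitals mark TGACTCCGC, 240 bases upstream of the start. In Srxn1 they mark 2 forms of the element, 158 and 45 bases upstream, and 2 copies of the AP-1 letters TGANTCA, 102 and 45 bases upstream, of which the nearer lies within the element. At least 1 copy of TGANTCA occurred in 7.81% of all windows. In Slc7a11 they mark forms of the antioxidant element 97 and 45 bases upstream and, 66 and 47 bases upstream, the amino acid response letters TGATGNAA on opposite strands. The copy 47 bases upstream shares bases with the element 45 bases upstream. TGATGNAA, which is read by ATF4 when amino acids are short, occurred in 3.97% of all windows. The Gclm and Txnrd1 stretches hold 1 antioxidant element each, in one of the 3 Txnrd1 windows. A match is a description of the letters, and the files hold no measurement of binding.

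The levels of the 10 genes, per length, spread widely in these cultures, and 9 of the 10 were higher on average in the mutants, while 51.4% of all genes tested had a log2 fold change above 0. Sqstm1 was the most abundant with 162 ± 1.48 RPKM (SD, n = 2) in the controls, and Slc7a11 the least abundant with 1.61 ± 0.113. Between them, in falling order of the control mean, stood Hmox1, Nfe2l2, Txnrd1, Nqo1, Srxn1, Keap1, Gclm and Gclc. Sqstm1 stood above Hmox1, and Hmox1 above Nfe2l2, in every sample. The ranges of the control samples overlapped between Nfe2l2 and Txnrd1, between Txnrd1 and Nqo1, between Nqo1 and Srxn1 and between Srxn1 and Keap1, so these neighbours did not differ beyond the spread between samples. Within each of the 4 samples, however, Nfe2l2 stood above Txnrd1, Txnrd1 above Nqo1 and Nqo1 above Srxn1, and of these pairs only Srxn1 and Keap1 changed order between samples. In the mutants Keap1 stood below both Gclm values at 14.6 and 15.1 RPKM.

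**Figure D1:**
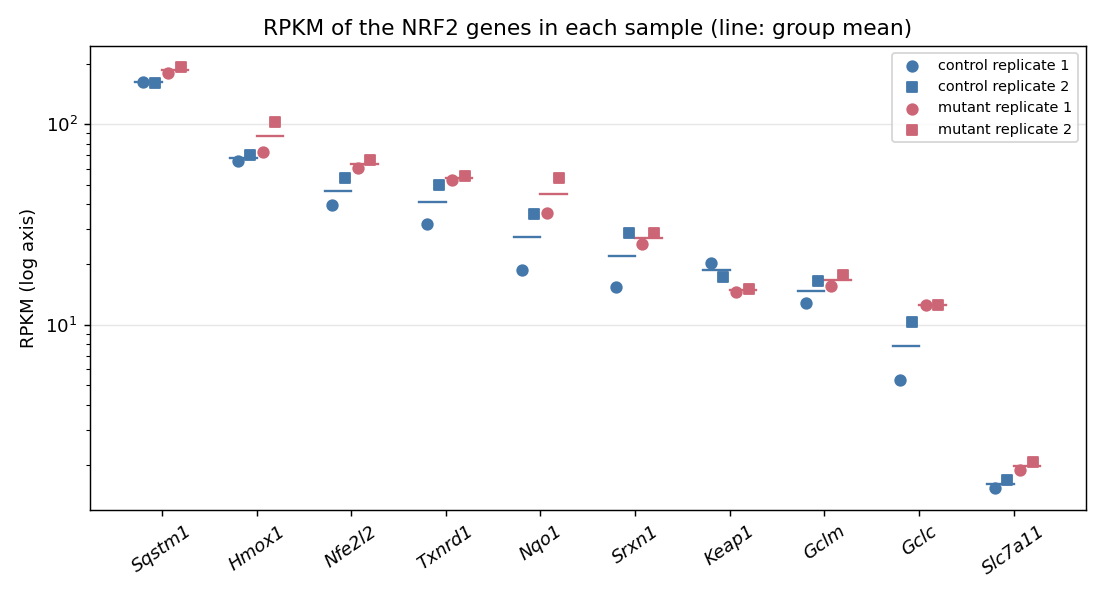
RPKM of each gene (log axis) in the 2 control samples (blue) and the 2 mutant samples (red), with circles for replicate 1, squares for replicate 2 and short lines for the group means. Control replicate 1 is the lowest of the 4 samples for 8 of the 10 genes and the highest for Keap1.

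The counts were compared between the genotypes with the quasi-likelihood test of edgeR over 14123 genes, and p-values were adjusted over all of them by the Benjamini-Hochberg method. None of the 10 genes passed an adjusted p of 0.05. Of all genes tested 0.0% passed it, while 15.6% had an unadjusted p under 0.05 in that test. DESeq2 also called none of the 10, although it called 3.07% of all genes higher (434) and 1.86% lower (263). A block for the replicate number in edgeR likewise called none of the 10, with 0.595% of all genes higher and 0.234% lower. An exact permutation test of 2 against 2 samples reaches 0.333 at the lowest, and the edgeR p-values borrow the spread of other genes. Of the 10 genes, 7 had both mutants above both controls in RPKM, against 28.3% of all genes tested, and 1 had both mutants below both controls, against 19.2%. Nqo1 counts among these 7 only by 35.94 RPKM in mutant replicate 1 against 35.87 in control replicate 2. The same 2 samples also lay close for Hmox1, at 72.5 and 70.0 RPKM, and for Txnrd1, at 52.6 and 49.6 RPKM. The median log2 fold change (mutant over control) of the 10 genes was 0.29, and that of all genes tested was 0.01. As the 10 genes were chosen with earlier results of these data known, these comparisons with all genes are descriptions only.

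Nfe2l2 and Keap1, the activator and its inhibitor, stood on opposite sides. Nfe2l2 had 39.5 and 53.6 RPKM in the controls and 60.4 and 66.3 in the mutants. Keap1 had 20.3 and 17.3 RPKM in the controls and 14.6 and 15.1 in the mutants. Both genes thus separated the genotypes without overlap, Nfe2l2 upwards and Keap1 downwards. The log2 fold change of Nfe2l2 was 0.41 (standard error 0.16, 95% interval 0.02 to 0.79), with an unadjusted p of 0.0419 and an adjusted p of 0.293 in edgeR's quasi-likelihood test. For Keap1 it was -0.38 (standard error 0.14, 95% interval -0.73 to -0.04), with an unadjusted p of 0.0347 and an adjusted p of 0.270 in the same test. These 2 were the only members of the 10 with an unadjusted p under 0.05 in that test, against 15.6% of all genes tested. The ratio of Nfe2l2 to Keap1 in RPKM was 1.94 and 3.10 in the controls and 4.13 and 4.39 in the mutants. It was thus also lowest in control replicate 1. As the 2 genes separated the genotypes in opposite directions, their ratio had to separate them too. An exact permutation test was therefore bound to give the smallest value that 4 samples allow (two-sided p = 0.333), and it adds nothing to the 2 genes.

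Of the genes for glutathione synthesis, Gclc separated the genotypes in RPKM without overlap and Gclm did not. Gclc and Gclm encode the catalytic and the modifier subunit of glutamate-cysteine ligase, the first and rate-limiting step of glutathione synthesis. Gclc had 5.29 and 10.3 RPKM in the controls and 12.5 and 12.6 in the mutants, from 383 to 1334 reads. Its mutant values were almost equal and lay above both controls, while the controls differed 1.95-fold from each other. The log2 fold change of Gclc was 0.65 ± 0.28 (standard error, edgeR adjusted p = 0.335). Gclm had 12.9 and 16.6 RPKM in the controls and 15.6 and 17.7 in the mutants. Its groups overlapped, since mutant replicate 1 lay below control replicate 2, and the log2 fold change was 0.14 (95% interval -0.25 to 0.52, edgeR adjusted p = 0.744). The difference between the 2 subunits was not tested.

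Slc7a11 encodes the transporter that exchanges glutamate for cystine and so feeds glutathione synthesis. It had 1.53 and 1.69 RPKM in the controls and 1.88 and 2.08 in the mutants. The groups did not overlap and the replicates lay close together, with a log2 fold change of 0.26 (95% interval -0.12 to 0.64, edgeR adjusted p = 0.505). The counts behind these values were 297, 408, 539 and 543, so that counting alone gives a relative SD of up to 5.80%. Reads covered 31.5% of its length of 9227 bases in control replicate 1 and 49.7% to 54.8% in the other 3 samples, the lowest coverage among the 10 genes.

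Among the redox enzymes, Nqo1 showed the widest spread. Nqo1 encodes a quinone reductase often used as a readout of NRF2, and it had 18.7 and 35.9 RPKM in the controls and 35.9 and 54.0 in the mutants. Control replicate 2 and mutant replicate 1 were thus at the same level, with 35.87 and 35.94 RPKM, and the replicates differed within each genotype. The log2 fold change of Nqo1 was 0.68, the largest of the 10 genes, with a standard error of 0.31 and a 95% interval of -0.06 to 1.42 (edgeR adjusted p = 0.364). Txnrd1, the cytosolic thioredoxin reductase, had 32.0 and 49.6 RPKM in the controls and 52.6 and 55.3 in the mutants. Only control replicate 1 stood apart there, and the log2 fold change was 0.37 ± 0.20 (standard error, edgeR adjusted p = 0.445). Srxn1, which encodes the sulfiredoxin that repairs overoxidised peroxiredoxins, had 15.4 and 28.6 RPKM in the controls and 25.3 and 28.6 in the mutants. Control replicate 2 reached the level of mutant replicate 2, so the groups overlapped, and the log2 fold change was 0.25 (95% interval -0.37 to 0.88, edgeR adjusted p = 0.699).

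Hmox1 encodes the inducible heme oxygenase, which breaks heme down to biliverdin, iron and carbon monoxide. It had 65.5 and 70.0 RPKM in the controls and 72.5 and 103 in the mutants. The controls and mutant replicate 1 lay close together, and mutant replicate 2, the sample with the Xist reads, stood above them. The log2 fold change of Hmox1 was 0.32 ± 0.17 (standard error, edgeR adjusted p = 0.443), and without mutant replicate 2 it was 0.08. Macrophages are rich in Hmox1, and the 11 macrophage markers with reads had a summed RPKM of 24.0 and 21.0 in the controls and 10.1 and 14.1 in the mutants. Of the 9 tested, 7 had both mutants below both controls, against 19.2% of all genes tested. Mrc1 had both mutants above both controls, against 28.3%. Mutant replicate 2 held more of both Hmox1 and the summed macrophage markers than mutant replicate 1. The part of these cells in the Hmox1 values was not tested. Adgre1, under its older symbol Emr1, had 0.235 and 0.200 RPKM in the controls and 0.129 and 0.142 in the mutants, and Fcgr1 was at 0 in mutant replicate 1.

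Sqstm1 encodes an autophagy receptor that is both a target of NRF2 and a partner of KEAP1. It had 163 and 161 RPKM in the controls and 179 and 193 in the mutants, from 6852 to 11088 reads. The controls were nearly equal, and both mutants lay above them. The log2 fold change of Sqstm1 was 0.15 (standard error 0.12, 95% interval -0.14 to 0.45, edgeR adjusted p = 0.613), and only that of Gclm was closer to 0 among the 10 genes.

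**Figure D2:**
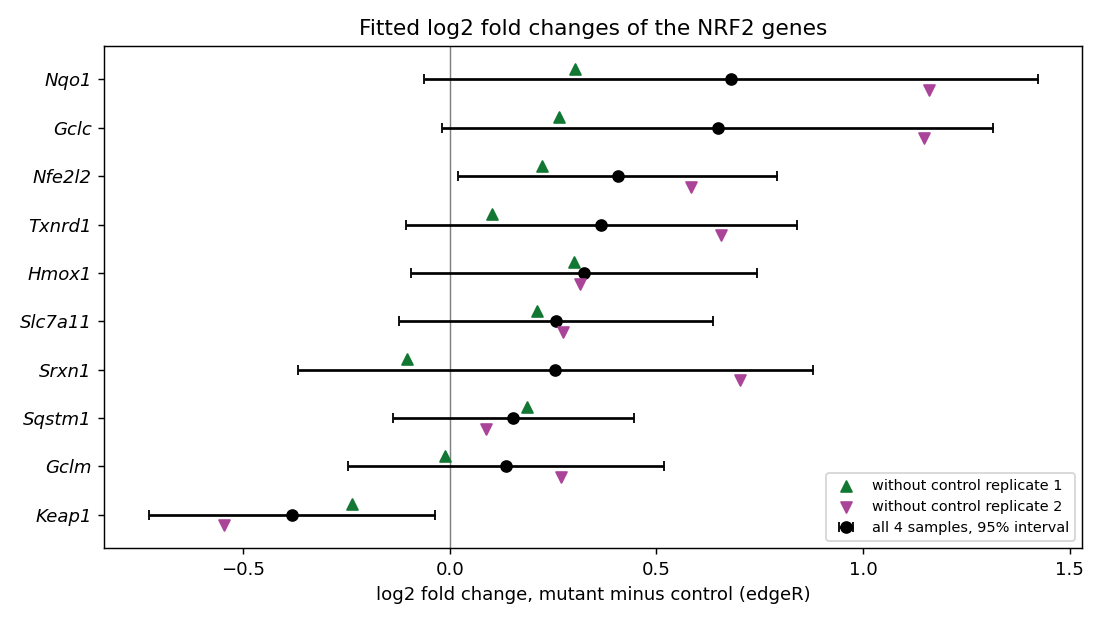
Fitted log2 fold changes (mutant minus control) of the 10 genes with 95% intervals from the edgeR fit of all 4 samples (black), and the fitted values without control replicate 1 (green) and without control replicate 2 (purple). Every interval except those of Nfe2l2 and Keap1 includes 0, and Gclm and Srxn1 lie below 0 without control replicate 1.

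The difference between the control replicates was as large as that between the genotypes for several of the genes. On the log2 scale of CPM (counts per 1000000 reads after TMM scaling), control replicate 2 exceeded replicate 1 by 0.91 for Gclc, 0.88 for Nqo1, 0.83 for Srxn1, 0.58 for Txnrd1 and 0.39 for Nfe2l2. Keap1 went the other way with -0.29. For 5 of the 10 genes the control pair differed by more than the fitted genotype difference. These were Gclc, Nqo1, Srxn1, Txnrd1 and Gclm. The mutant pair differed by more than it for Hmox1 and Gclm. The median of replicate 2 over replicate 1 was 0.34 for the 10 genes in the controls and 0.005 for the 14074 genes tested with a read in every sample. In the mutants these medians were 0.10 and 0.01. The control sample with the low NRF2 genes thus had the high Keap1, in the same order as the genotypes.

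**Figure D3:**
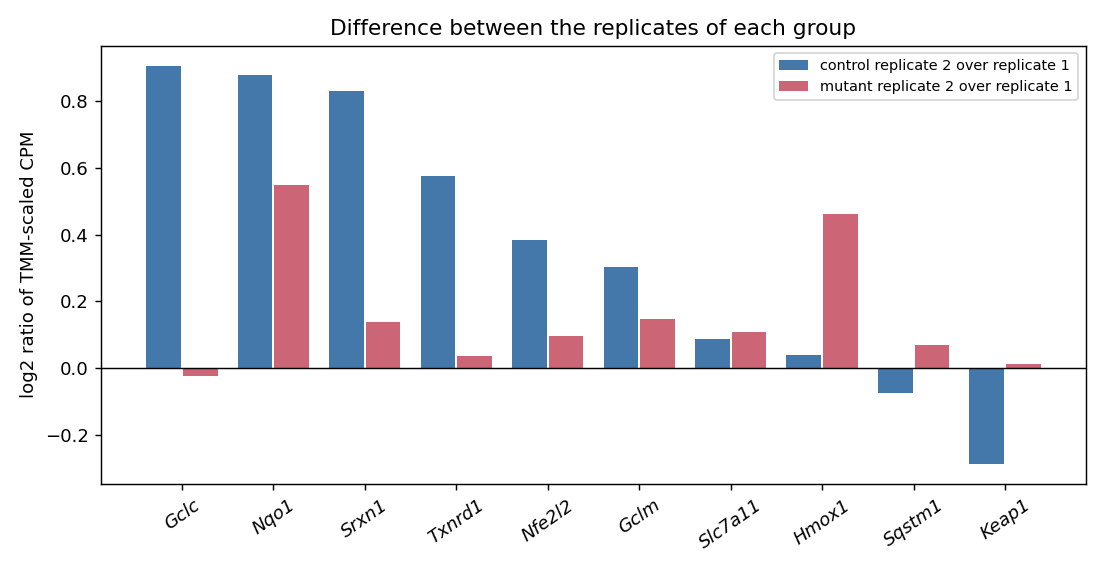
Log2 ratio of TMM-scaled CPM between replicate 2 and replicate 1 of the controls (blue) and of the mutants (red) for each of the 10 genes. The control ratios reach 0.91 for Gclc, and the mutant ratios reach 0.55 for Nqo1.

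Control replicate 1 was the lowest of the 4 samples for 8 of the 10 genes, against 43.1% of all genes tested. It was the highest for Keap1, against 27.8%. Without control replicate 2, leaving control replicate 1 as the only control, edgeR called Nfe2l2, Gclc, Txnrd1 and Srxn1 higher and Keap1 lower in the mutants, when 9.25% of all genes were called higher and 10.3% lower. Without control replicate 1 it called none of the 10, with 3.55% of all genes called higher and 0.999% lower. The log2 fold change of Gclc was 1.15 in the first of these fits and 0.26 in the second, that of Txnrd1 was 0.66 and 0.10, that of Nqo1 was 1.16 and 0.30, and that of Srxn1 was 0.70 and -0.10. Hmox1 at 0.32 and 0.30, and Slc7a11 at 0.27 and 0.21, moved little. With 1 control left, the lone sample is assumed to vary like the mutants.

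The genes around these 10 were taken from 9 lists of the pathway, which held 140 genes, of which 131 were tested. None of them passed the adjusted threshold. DESeq2 called Maff, Ephx1 and Ggct higher and Gstm2, Mgst3 and Slc40a1 lower. Gstm2, a glutathione transferase with near copies that can share its reads, is named only for this call, after its values were seen. At an unadjusted p under 0.05 in the edgeR test, 7 were higher and 17 lower in the mutants, while 9.29% of all genes tested were higher and 6.28% lower at this limit. The median log2 fold change over the 131 genes was 0.003. Both mutants stood above both controls for 28 of them and below for 31, where 28.3% of all genes tested stood above and 19.2% below.

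Among 14 tested proteins that control NRF2, the median log2 fold change was 0.07. Maff, which encodes one of the small MAF partners of NRF2, had 2.33 and 2.64 RPKM in the controls and 5.14 and 7.87 in the mutants. Both mutants stood well above the controls, and its log2 fold change, 1.34 with a standard error of 0.26 (edgeR adjusted p = 0.0961), was larger than that of any of the 10 genes. Nfe2, a relative of NRF2, had only 11 to 24 reads and a log2 fold change of -1.13 (edgeR adjusted p = 0.396), which was -0.48 without control replicate 1.

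Of 12 tested genes for glutathione synthesis, reduction and peroxide removal, the median was 0.01. Ggct, an enzyme of glutathione breakdown, had 1.05 and 1.94 RPKM in the controls and 3.51 and 4.70 in the mutants, a log2 fold change of 1.41 (edgeR adjusted p = 0.137). Ggt5, a surface enzyme that cleaves glutathione conjugates, had 23.3 and 7.75 RPKM in the controls and 3.93 and 3.64 in the mutants, a log2 fold change of -2.09 (edgeR adjusted p = 0.123). Control replicate 1 stood far above the other 3 samples for Ggt5, and without it the log2 fold change was -1.05. Of 17 tested glutathione transferases, which couple glutathione to electrophiles, 3 were higher and 6 lower at an unadjusted p under 0.05 in the edgeR test. Of all genes tested, 9.29% were higher and 6.28% lower at this limit. The median of the transferases was -0.31. Mgst3, a microsomal transferase, had 68.8 and 39.0 RPKM in the controls and 27.8 and 26.1 in the mutants (log2 fold change -1.04, edgeR adjusted p = 0.159), and without control replicate 1 its log2 fold change was -0.55. Gstp2 had a log2 fold change of 1.35 (edgeR adjusted p = 0.148), from 17 to 85 reads, and reads shared with its near copy Gstp1 make it uncertain. The transferases held genes on both sides, as the plot of the lists shows. Both mutants stood below both controls for 9 of the 17 and above for 5, against 19.2% and 28.3% of all genes tested.

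The list of thioredoxins, peroxiredoxins, superoxide dismutases and catalase had 18 tested genes and a median of -0.06, with Sesn1 at -0.73 (edgeR adjusted p = 0.208) and Prdx4 at -0.49 (edgeR adjusted p = 0.286). Without control replicate 1 they were at -0.35 and -0.20. Sesn1 encodes a stress protein of the sestrin family and Prdx4 the peroxiredoxin of the endoplasmic reticulum. The 8 genes that supply NADPH, the reductant that NQO1, TXNRD1 and glutathione reductase use, had a median of -0.08. Idh2 and Idh1, the NADP-dependent isocitrate dehydrogenases of mitochondria and cytosol, had log2 fold changes of -0.42 (edgeR adjusted p = 0.204) and -0.37 (edgeR adjusted p = 0.229), and for each of them the mutants lay below the controls. Of 12 tested genes for heme and iron handling, the median was 0.02. There Slc40a1, the iron exporter, had 6.80 and 4.15 RPKM in the controls and 2.55 and 2.38 in the mutants, a log2 fold change of -1.20 (edgeR adjusted p = 0.122), or -0.77 without control replicate 1. Blvrb, which encodes biliverdin reductase B, had a log2 fold change of -0.42 (edgeR adjusted p = 0.256).

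Of 20 tested genes for quinone, aldehyde and drug metabolism, the median was 0.08. Ephx1, the microsomal epoxide hydrolase, had 75.1 and 78.7 RPKM in the controls and 118 and 155 in the mutants. Its replicates lay closer together within the controls than those of Nqo1, and the log2 fold change was 0.78 ± 0.16 (standard error, edgeR adjusted p = 0.0985). Ugt1a6a, a glucuronosyl transferase, had a log2 fold change of -0.63 (edgeR adjusted p = 0.278), and exons that the Ugt1a genes share make its count uncertain. The 17 tested genes of the ATF4 and amino acid stress response had a median of 0.04 and none with an unadjusted p under 0.05 in the edgeR test. Ddit4, an inhibitor of mTORC1 signalling, was at 0.48 (edgeR adjusted p = 0.346) and Vldlr, a lipoprotein receptor, at -0.35 (edgeR adjusted p = 0.432). Without control replicate 1 these were 0.80 and -0.19, and without control replicate 2 they were 0.19 and -0.54. The 13 autophagy receptors and LC3 proteins had a median of -0.02. Wipi1, a protein of early autophagosomes, was at -0.44 (edgeR adjusted p = 0.288) and Calcoco1 at -0.31 (edgeR adjusted p = 0.660), and without control replicate 1 they were at -0.20 and 0.20.

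**Figure D4:**
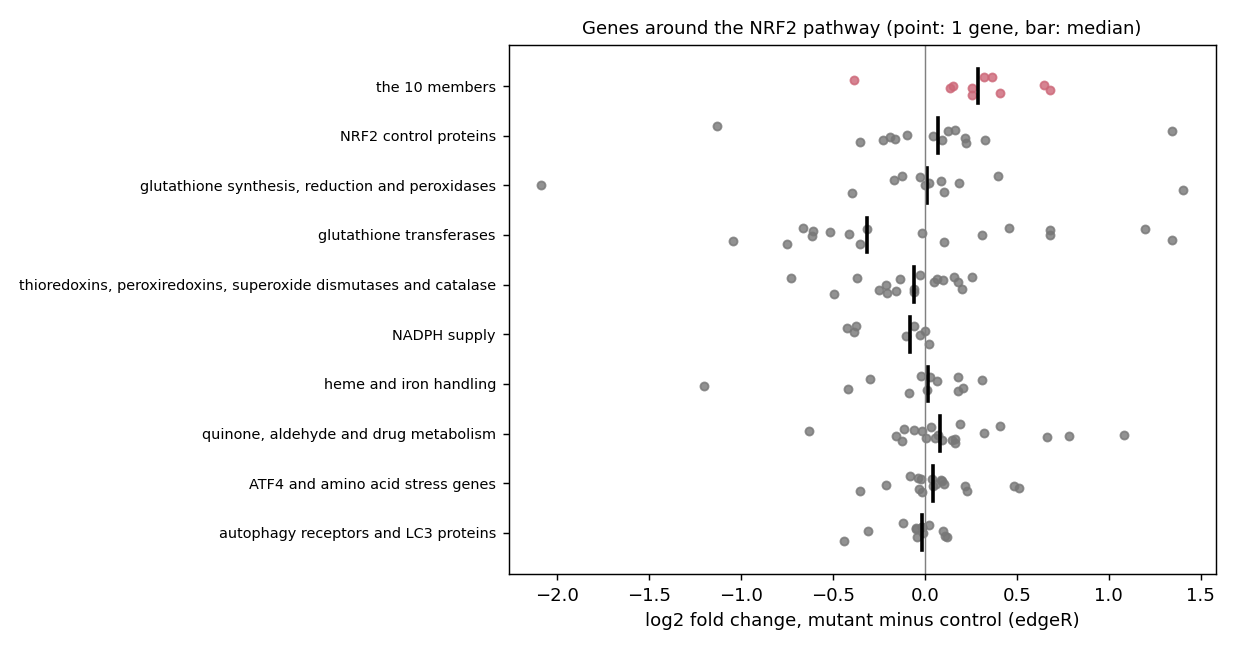
Fitted log2 fold changes (mutant minus control) of the 10 genes (red) and of the tested genes of the 9 surrounding lists (grey), 1 point a gene, with a black bar at each median. The medians of the surrounding lists lie between -0.31 for the glutathione transferases and 0.08 for quinone, aldehyde and drug metabolism, and that of the 10 genes is 0.29.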

How the data were processed

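Total RNA of 4 rib chondrocyte cultures was enriched for poly(A) RNA and sequenced by a service. The authors deposited raw read counts per gene, RPKM (the count per kilobase of the listed gene length and 1000000 reads counted on genes), and, in percent, how much of each gene's length the reads covered. The submitters' processing notes name mm9 and SAMtools. The aligner, the counting tool and the use of strand are not given in the sources used here. Genes without a read in a sample were given a count of 0. Groups and replicate numbers came from the sample titles, and do not say whether replicates came from separate embryos. The sex-linked genes show separate embryos for the 2 mutants but do not separate the 2 controls. The authors give n = 2 for this sequencing and state that n in their legends counts biological replicates for in vitro or ex vivo work. Whether each control culture came from its own embryo is not stated, so p-values measure only the spread between these samples.

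From the counts, edgeR 4.0.16 (R 4.3.3) was run with TMM scaling and the robust quasi-likelihood test over the 14123 genes that reached 10 counts in 2 or more samples. Standard errors were taken from the F statistic, and 95% intervals from its degrees of freedom. RPKM values were used as deposited, and coverage was not tested. Alternatives were DESeq2 1.42.0, RLE size factors, other count filters, limma 3.58.1 on log2(RPKM + 1) and log2(RPKM + 0.1), a block for the replicate number, and fits without each sample. The scripts were tested on simulated data. The 2 samples of each group differed by far more than sampling noise (chi-square over degrees of freedom of 49.7 for the controls and 24.0 for the mutants) and were counted separately.

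The members and lists were chosen with earlier results of these data known. Named were the 10 members, Senp6 and, in each surrounding list, the genes past an adjusted p of 0.05 or else the 2 with the smallest p, with markers where needed. Promoter motifs were chosen after the sequences were seen. Counting error only is covered by the relative SDs from counts. Between 297 and 11088 reads stood behind a member's value in a sample.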

Additional observations from a re-analysis of the deposited data

How the results depend on the processing

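Over 11 alternatives, the log2 fold changes of the 10 members kept their direction in 108 of 110 values and their side of the threshold as well in 103. The values that turned were Gclm (-0.012) and Srxn1 (-0.10), both without control replicate 1, where the number of members with the mutants below the control samples left was 2 in place of 1. The 5 that passed the threshold did so without control replicate 2. Leaving out each sample in turn, the log2 fold change ranged from 0.26 to 1.15 for Gclc, -0.012 to 0.27 for Gclm and -0.55 to -0.24 for Keap1. It ranged from 0.22 to 0.58 for Nfe2l2, -0.10 to 0.70 for Srxn1 and 0.10 to 0.66 for Txnrd1. Leaving out a sample can only keep or raise the number of members with groups that do not overlap. The range of that number is therefore not a measure of stability, and the matching shares of all genes are not given here. The members called ranged from 0 to 4 higher and from 0 to 1 lower, those with groups that did not overlap from 7 to 9 above and 1 to 2 below, and the median of the 10 from 0.20 to 0.45. Over all genes, 68 to 1296 were called higher and 37 to 1444 lower, and in the surrounding lists 0 to 13 higher and 0 to 19 lower. DESeq2 called 434 genes higher and 263 lower, of which 3 and 3 were in the surrounding lists and 0 were members. Without a count filter edgeR called 225 higher and 61 lower, with 2 higher in the surrounding lists. With a replicate block, edgeR called 84 genes higher and 33 lower and none of the 10 members, for which Nqo1 had the smallest adjusted p of 0.123. The sample titles do not say whether equal replicate numbers pair the samples. The deviations of replicate 1 from replicate 2 correlated at -0.0422 between controls and mutants. A single difference per group cannot decide pairing. Of 209 values of the other named genes, 28 passed the threshold, 15 of them without control replicate 2, and 1 turned, that of Calcoco1, which ranged from -0.72 to 0.20 (without control replicate 1) as each sample was left out. Maff and Ephx1 passed it with DESeq2, without a count filter, and without control replicate 1, control replicate 2 or mutant replicate 1. The median of all genes tested stayed between -0.008 and 0.055. The causes of these changes were not tested. Groups of 2 samples are too small to look for outlying samples within a group.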
